A study of Mus musculus with 4 samples.

Results

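Leukocytes reach the fetal lung from the yolk sac and fetal liver before birth, and the genes described here mark them in whole lung RNA. The 41 genes were taken by symbol from a list of macrophage, neutrophil and other leukocyte genes, and all 41 were among the 45706 genes counted. They were divided by their known roles into 15 macrophage and monocyte genes, 7 granulocyte genes, 17 genes shared by all leukocytes or by myeloid cells, and 2 genes of other lineages, *Cpa3* of mast cells and *Cd3e* of T cells. The genes and subgroups were chosen with earlier results of these data known.

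RNA was sequenced from E17 left lung lobes of C57BL/6 embryos, 2 wild type (*Myh10*+/+) and 2 homozygous for the missense allele L458R of *Myh10* (*Myh10* L458R/L458R, hereafter mutant). The allele came from an ENU mutagenesis screen and is carried by every cell of the embryo, leukocytes included. *Myh10* encodes the heavy chain of nonmuscle myosin II-B, and its own level, 505 and 504 CPM (counts scaled to the library size) in wild-type lungs against 540 and 513 CPM in mutant lungs, cannot tell a missense allele from the wild type. The embryos were not treated, and neither litter nor sex is given in the labels.

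Between 19116971 and 32055306 reads per lung were counted on genes, and counts of replicate lungs spread beyond counting error (chi-square per degree of freedom 7.47 and 12.6), so 2 lungs per genotype limit the precision. Counts were scaled with the TMM method of edgeR and compared with its quasi-likelihood test, and adjusted p-values are Benjamini-Hochberg values over the 18763 genes whose counts averaged 5 or more. The log2 fold change (log2FC) sets mutant against wild-type lungs, given with its standard error (SE), and a gene was called where its adjusted p-value was under 0.05. Of all tested genes, 1.64% were called, 1.34% as lower and 0.298% as higher in mutant lungs, and the median log2FC was 0.0018.

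Macrophage precursors settle in the lung early in development and depend on the receptor of colony stimulating factor 1. Neutrophils of the fetus are made mainly in the liver and later in the bone marrow, and they fill their granules in a fixed order, first with myeloperoxidase and elastase and then with lactoferrin and cathelicidin. Integrins of the beta 2 family, Fc receptors and an oxidase that makes superoxide are shared by both lineages. In RNA of a whole lobe, fewer cells of a type and less RNA per cell cannot be told apart.

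Most of the leukocyte genes had lower levels in mutant lungs, and the granulocyte subgroup had the lowest median log2FC. Of the 41 genes, 38 passed the filter on low counts, and 2 of them were called, *S100a9* and *Laptm5*, both lower (1.34% of all tested genes were called as lower). The number of such calls changed when 1 lung at a time was left out, as did the number over all tested genes. In these fits the median log2FC of the members stayed between -0.295 and -0.158. The log2FC was below 0 for 32 of the 38 genes (84.2%), against 49.5% of all tested genes. In 23 of the 38 genes (60.5%) both mutant lungs lay below both wild-type lungs, against 24.3% of all tested genes, and in 1 gene, *Cpa3*, both lay above, against 23.9%. An unadjusted p-value under 0.05 was reached by 16 of the 38 genes with a lower level (42.1%, against 9.02% of all tested genes) and by 0 with a higher level (against 7.52%). Fewer of the 38 reached it with a lower level when wild-type lung 1, wild-type lung 2 or mutant lung 1 was left out. With the DESeq2 Wald test 10 reached it with a lower level. Genes of the same cells in the same 4 lungs are not independent of each other, so these shares are descriptions. The median log2FC was -0.21 over the 38 genes, -0.65 over 5 granulocyte genes, -0.22 over 17 shared genes and -0.08 over 15 macrophage and monocyte genes.

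**Figure D1:**
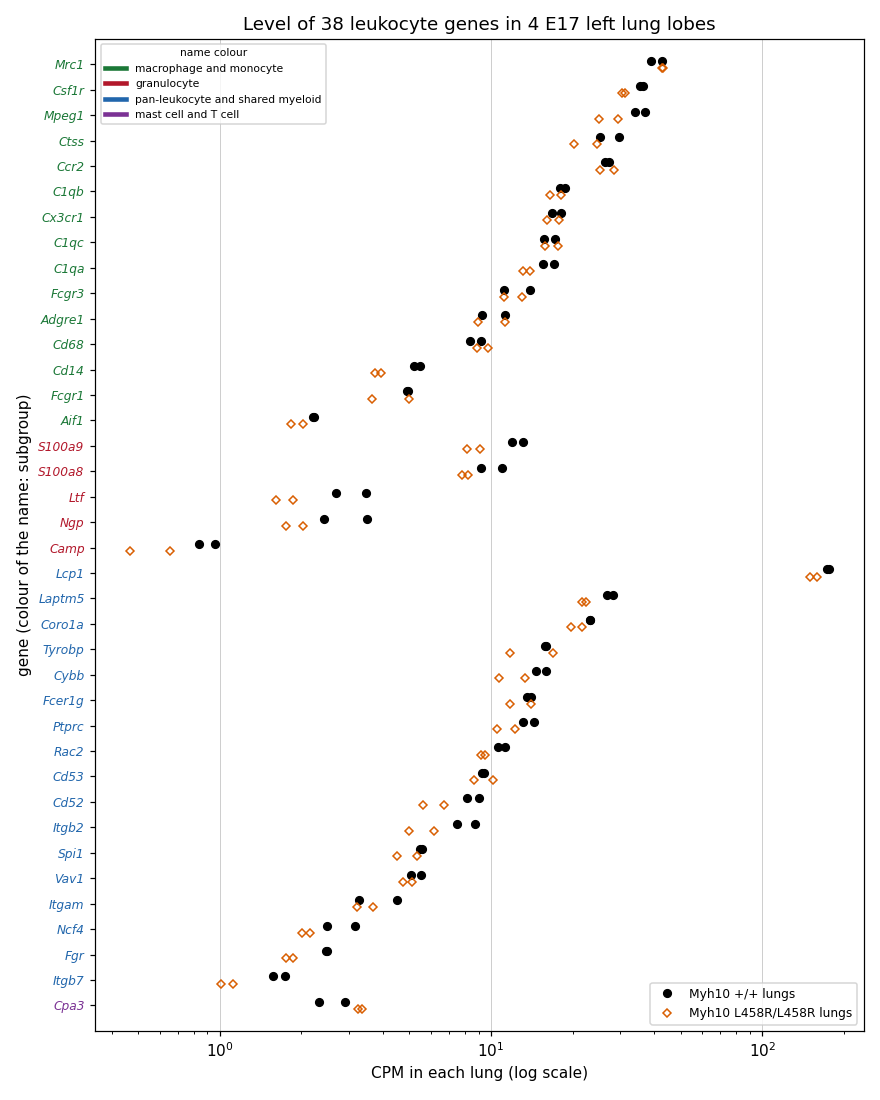
Level of each of the 38 tested leukocyte genes in each lung, in CPM on a log axis. Filled circles are the 2 wild-type lungs and open diamonds the 2 mutant lungs, and the colour of a gene name gives its subgroup. Lcp1, at 173 and 176 CPM in wild-type lungs, lies far to the right of the other genes, and both diamonds of each granulocyte gene lie to the left of both circles.

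The granulocyte genes had the widest gap between genotypes in their median. *S100a9* and *S100a8* encode the subunits of calprotectin, a calcium-binding protein that fills the cytosol of neutrophils. *S100a9* (ENSMUSG00000056071) was counted at 13.1 and 11.9 CPM in wild-type lungs and at 9.10 and 8.14 CPM in mutant lungs. The 2 genotypes did not overlap, and the log2FC was -0.55 (SE 0.11, 95% interval -0.79 to -0.30, adjusted p = 0.0326), so its level fell by 31.5%. The adjusted p was 0.152 without wild-type lung 1 and 0.0566 with the DESeq2 Wald test. *S100a8* (ENSMUSG00000056054) had 11 and 9.19 CPM in wild-type lungs and 8.23 and 7.83 CPM in mutant lungs. Its values did not overlap either, but its log2FC of -0.34 (SE 0.12, 95% interval -0.60 to -0.07, adjusted p = 0.191) did not pass the threshold. Both genes lie on chromosome 3 of GRCm38, *S100a8* from 90668978 to 90670035 on the plus strand and *S100a9* from 90692632 to 90695721 on the minus strand. The ratio of *S100a9* to *S100a8* counts was 1.19 and 1.30 in wild-type lungs and 1.10 and 1.04 in mutant lungs. Per length of exon, *S100a9* ranked first of all 41 genes in wild-type lungs (24.0 CPM per kb), close to *Tyrobp* (23.9 CPM per kb), and *S100a8* had 14.6 CPM per kb.

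The genes of the later granules had fewer reads and lower ratios, and none of them was called. *Ltf*, which encodes the iron-binding protein lactoferrin, had 3.45 and 2.68 CPM in wild-type lungs and 1.87 and 1.62 CPM in mutant lungs, a log2FC of -0.83 (SE 0.23, adjusted p = 0.101). *Ngp*, the gene of neutrophilic granule protein, had 3.49 and 2.42 CPM in wild-type lungs and 1.76 and 2.02 CPM in mutant lungs, a log2FC of -0.65 (SE 0.24, adjusted p = 0.199). *Camp*, which encodes the antimicrobial peptide cathelicidin, had only 22 and 16 reads in wild-type lungs and 13 and 21 reads in mutant lungs. Its log2FC was -0.67, with a 95% interval from -1.47 to 0.12. In all 5 tested granulocyte genes the mutant lungs lay below the wild-type lungs (against 24.3% of all tested genes). *Ltf*, *Ngp* and *Camp* all lie on chromosome 9. The members of the first granules, *Mpo* and *Elane*, were almost without reads. *Mpo*, the gene of myeloperoxidase, had 0 and 1 reads in wild-type lungs and 3 and 1 in mutant lungs, and *Elane*, the gene of neutrophil elastase, had 0, 0, 0 and 1. Both stayed under the filter, and a count of 0 allows up to 3 reads, which is 0.131 CPM in wild-type lung 1. A difference between genotypes in these genes was not detectable at this depth.

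*Spi1*, a member of the shared genes, encodes PU.1, a transcription factor of myeloid cells that binds sites with the core GAGGAA, and C/EBP factors of the granulocyte lineage bind sites near TTNNGNAA. These letters were searched for on both strands in the 250 bases before each RefSeq start (GRCm38.p6), which were given for 31 of the 41 genes in 35 promoters. GAGGAA was found in 54.3% of these promoters and in 23.3% of 32851 promoters of all genes. The longer GAGGAAGT, which contains the core, was found in 14.3% and 2.44%, TTNNGNAA in 42.9% and 36.8%, and the TATA box letters TATAAA in 14.3% and 12.4%. By subgroup, GAGGAA was in 9 of 12 macrophage and monocyte promoters, 4 of 7 granulocyte promoters and 5 of 14 promoters of shared genes. A relation of these letters to the fold changes was not tested. A match describes letters and is not evidence of binding. The promoters of 3 granulocyte genes are shown because *S100a9* was called, *S100a8* is its partner and *Ltf* had the lowest ratio. Each runs 5′ to 3′ on the strand of its gene and ends at the base before the RefSeq start, and capitals mark GAGGAA, GAGGAAGT, TTNNGNAA or TATAAA on either strand. *S100a9* lies at chr3:90695722-90695971 (minus strand), *S100a8* at chr3:90668821-90669070 (plus strand) and *Ltf* at chr9:111019042-111019291 (plus strand).
S100a9: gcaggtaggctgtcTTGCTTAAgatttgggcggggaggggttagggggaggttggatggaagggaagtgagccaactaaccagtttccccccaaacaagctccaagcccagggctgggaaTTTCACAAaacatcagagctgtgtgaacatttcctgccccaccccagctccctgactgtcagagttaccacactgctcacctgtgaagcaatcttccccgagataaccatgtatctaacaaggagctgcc
S100a8: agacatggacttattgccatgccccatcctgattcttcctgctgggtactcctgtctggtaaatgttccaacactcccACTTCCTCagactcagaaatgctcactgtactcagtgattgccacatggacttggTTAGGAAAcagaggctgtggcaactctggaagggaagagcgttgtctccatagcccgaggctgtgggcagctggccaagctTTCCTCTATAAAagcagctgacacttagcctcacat
Ltf: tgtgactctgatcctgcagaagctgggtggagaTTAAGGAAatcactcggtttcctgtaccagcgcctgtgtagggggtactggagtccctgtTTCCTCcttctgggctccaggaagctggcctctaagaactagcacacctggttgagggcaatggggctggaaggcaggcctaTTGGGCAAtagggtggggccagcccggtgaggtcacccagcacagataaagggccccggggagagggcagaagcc

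The *S100a9* promoter held 2 matches of TTNNGNAA and no match of GAGGAA. That of *S100a8* held GAGGAA at 2 places, the one farther from the start within GAGGAAGT and the nearer one next to the TATA box letters, which begin 30 bases before the start, and it held TTNNGNAA once. That of *Ltf* held 1 match of GAGGAA and 2 of TTNNGNAA. The *Ngp* promoter also held TTNNGNAA, and that of *Camp* held none of the letters searched. The GENCODE M21 annotation begins *S100a8* at 90668978 and *Ltf* at 111019271, inside the stretches shown. Positions in these 2 stretches therefore hold only for the RefSeq start.

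Among the 17 genes of all leukocytes or of myeloid cells, 16 had a log2FC below 0 (against 49.5% of all tested genes), and in 12 of the 17 (70.6%, against 24.3%) both mutant lungs lay below both wild-type lungs. *Laptm5*, which encodes a lysosomal membrane protein of blood cells that limits antigen receptor signaling, was the only one called. It had 28.2 and 26.7 CPM in wild-type lungs and 22.3 and 21.7 CPM in mutant lungs, a log2FC of -0.32 (SE 0.07, 95% interval -0.48 to -0.16). Its adjusted p of 0.04997 lay at the threshold, with 0.0521 from DESeq2 size factors, 0.128 from the DESeq2 Wald test, and 0.189, 0.194 and 0.17 without wild-type lung 1, wild-type lung 2 and mutant lung 1. *Ptprc*, which encodes CD45, the surface phosphatase that defines leukocytes, had 14.4 and 13.1 CPM in wild-type lungs and 10.5 and 12.3 CPM in mutant lungs. The genotypes did not overlap, and its log2FC of -0.27 (SE 0.11, adjusted p = 0.224) did not pass. *Lcp1*, which encodes the actin-bundling protein L-plastin and had by far the most reads of the 41 genes, was counted at 173 and 176 CPM in wild-type lungs and at 150 and 160 CPM in mutant lungs. This was the most precise value of the 38 genes, a log2FC of -0.17 (SE 0.05, adjusted p = 0.113). Of its 9504 exon bases 530 overlap genes on the opposite strand, and whether strand was used in counting is not stated.

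Leukocytes crawl by integrin adhesion and an actin cortex, and none of the adhesion and actin genes of this subgroup was called. *Itgb2*, the beta chain of the leukocyte integrins, had 8.73 and 7.51 CPM in wild-type lungs and 4.997 and 6.18 CPM in mutant lungs, a log2FC of -0.54 (SE 0.15, adjusted p = 0.0987). *Itgb7*, the beta chain of gut-homing and mast cell integrins, had 1.75 and 1.58 CPM against 1.01 and 1.12 CPM, with a log2FC of -0.64 (adjusted p = 0.266). *Itgam*, the alpha chain that pairs with *Itgb2* on macrophages and neutrophils, overlapped between genotypes, with 4.50 and 3.26 CPM against 3.67 and 3.20 CPM (log2FC -0.19, adjusted p = 0.689), and 65.2% of its 75-base windows also occur in *Gm49368*. *Coro1a* and *Rac2*, which encode the actin regulator coronin 1A and a small GTPase of blood cells, did not overlap. *Coro1a* had 23.1 and 23.3 CPM against 19.7 and 21.6 CPM (log2FC -0.16, adjusted p = 0.313), and *Rac2* had 10.6 and 11.2 CPM against 9.49 and 9.20 CPM (log2FC -0.22, adjusted p = 0.314). Few bases of *Coro1a*, 26, overlap an opposite-strand gene. *Vav1*, an exchange factor for such GTPases, overlapped at a log2FC of -0.09 (adjusted p = 0.812).

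The genes of the phagocyte oxidase had values on the same side. *Cybb*, the catalytic subunit, had 15.9 and 14.6 CPM in wild-type lungs and 10.7 and 13.3 CPM in mutant lungs (log2FC -0.34, adjusted p = 0.152). *Ncf4*, a cytosolic subunit, had 2.49 and 3.15 CPM against 2.01 and 2.14 CPM (log2FC -0.43, adjusted p = 0.366), and neither gene overlapped. *Cd52*, a small glycoprotein of the leukocyte surface, had 9.04 and 8.14 CPM against 5.61 and 6.71 CPM, a log2FC of -0.48 (SE 0.14, adjusted p = 0.11), and 172 of its 1187 exon bases overlap a gene on the opposite strand. The signaling adaptors *Fcer1g* (log2FC -0.10, adjusted p = 0.706) and *Tyrobp* (log2FC -0.14, adjusted p = 0.667), which carry the signals of many myeloid receptors, overlapped between genotypes. *Tyrobp* had 15.9 and 16.0 CPM in wild-type lungs but 11.8 CPM in the first mutant lung and 17.0 CPM in the other, so the mutant lungs differed more from each other than the genotype means did. *Fgr*, a Src family kinase of myeloid cells, had 2.49 and 2.47 CPM against 1.76 and 1.86 CPM (log2FC -0.45, adjusted p = 0.343). *Spi1* had 5.54 and 5.46 CPM against 4.49 and 5.31 CPM (log2FC -0.16, adjusted p = 0.655). *Cd53*, a tetraspanin of leukocytes, was the only gene of the 17 above 0, at 0.02. The *Laptm5* promoter, at chr4:130913066-130913315 (plus strand), is shown as that of the called gene of this subgroup, with capitals for the same letters. It held GAGGAA once, from 38 to 33 bases before the start, and TATAAA once, from 218 to 213 bases before it. The GENCODE M21 annotation begins this gene at 130913125, inside the stretch, so these distances hold only for the RefSeq start.
Laptm5: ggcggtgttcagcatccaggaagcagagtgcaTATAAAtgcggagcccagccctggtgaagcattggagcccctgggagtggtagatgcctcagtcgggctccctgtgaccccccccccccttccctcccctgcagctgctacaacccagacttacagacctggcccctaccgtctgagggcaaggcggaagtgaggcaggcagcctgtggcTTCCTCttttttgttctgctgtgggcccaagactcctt

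**Figure D2:**
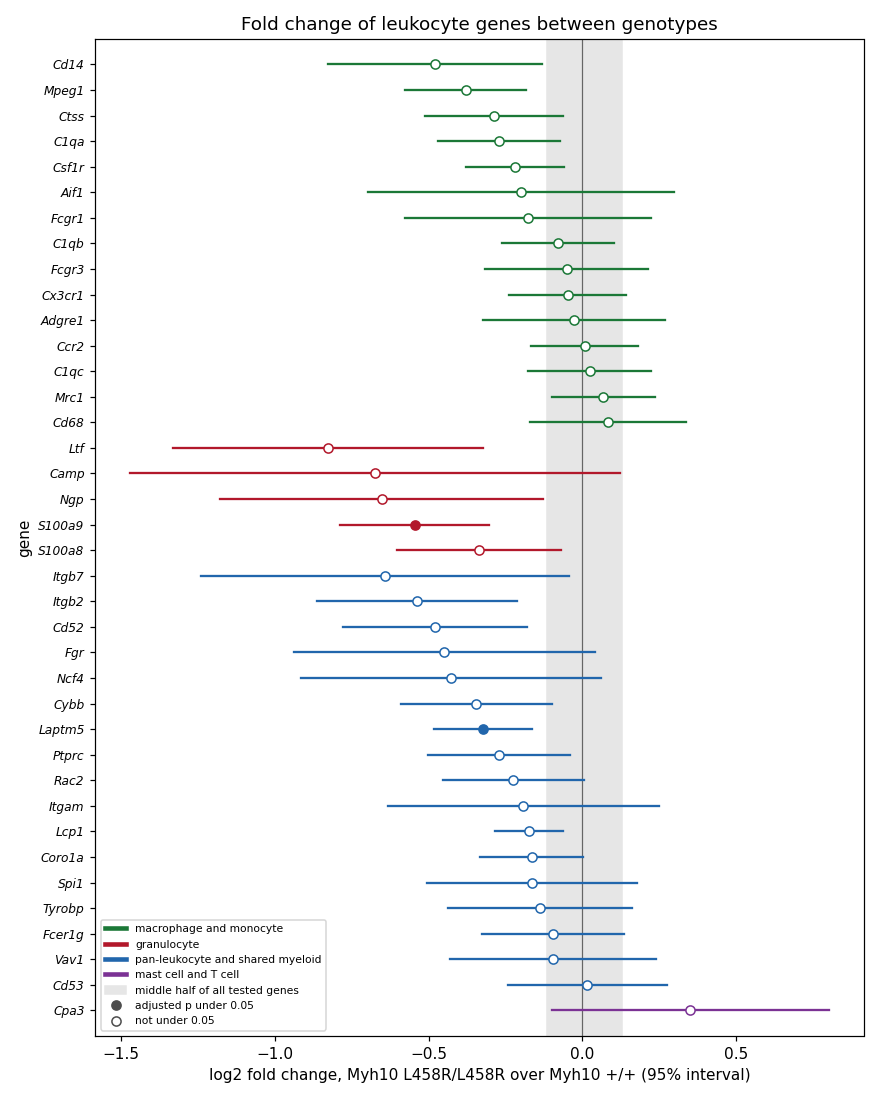
Log2 fold change (log2FC) of each of the 38 tested genes with its 95% interval, mutant over wild type, coloured by subgroup. Filled points were called and open points were not, the grey band spans the quartiles of all tested genes (-0.11 to 0.13), and only S100a9 and Laptm5 are filled, while the red granulocyte points lie from -0.83 to -0.34.

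The macrophage and monocyte genes lay on both sides of 0. Of the 15 genes, 11 had a log2FC below 0 (against 49.5% of all tested genes) and 4 above, 0 were called, and 5 (33.3%, against 9.02%) had a lower level at an unadjusted p-value under 0.05. In 6 (40%) both mutant lungs lay below both wild-type lungs, against 24.3% of all tested genes, in 0 they lay above, against 23.9%, and in the other 9 the genotypes overlapped. Several common markers had values close to equal. *Mrc1*, which encodes the mannose receptor CD206, had 42.8 and 39.1 CPM in wild-type lungs and 43.2 and 42.8 CPM in mutant lungs, a log2FC of 0.07 with a 95% interval from -0.10 to 0.24. *Ccr2*, the receptor of CCL2 that marks monocytes, had 27.2 and 26.3 CPM against 25.2 and 28.5 CPM, with a 95% interval from -0.17 to 0.18. *Cx3cr1*, the receptor of fractalkine, had an interval from -0.24 to 0.14, and *Adgre1*, which encodes the macrophage antigen F4/80, from -0.32 to 0.27. *Cd68*, a lysosomal glycoprotein of phagocytes, had 9.21 and 8.35 CPM against 8.91 and 9.73 CPM, a log2FC of 0.08. Differences inside these intervals were not detectable with 2 lungs per genotype.

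Other genes of the same cells had lower levels in both mutant lungs. *Mpeg1*, which encodes the pore-forming protein perforin-2 of phagocytes, had 37.1 and 33.9 CPM in wild-type lungs and 24.98 and 29.5 CPM in mutant lungs, a log2FC of -0.38 (SE 0.09, adjusted p = 0.0608), just outside the threshold. The DESeq2 Wald test called it (adjusted p = 0.0484), the only gene of the 23 for which it gave an adjusted p that it called. Per read of *Mrc1*, *Mpeg1* had 0.865 and 0.867 reads in wild-type lungs and 0.578 and 0.690 reads in mutant lungs, a ratio formed after the values were seen. *Cd14*, the co-receptor for lipopolysaccharide, had 5.19 and 5.46 CPM against 3.92 and 3.73 CPM (log2FC -0.48, adjusted p = 0.161). *Csf1r*, the receptor on which macrophages depend, had 36.4 and 35.4 CPM in wild-type lungs and 30.4 and 31.3 CPM in mutant lungs, a log2FC of -0.22 (SE 0.07, adjusted p = 0.163). An opposite-strand gene, *Hmgxb3*, covers 873 of the 5774 exon bases of *Csf1r*. *Ctss*, the gene of the lysosomal protease cathepsin S, had 29.6 and 25.2 CPM against 20.2 and 24.7 CPM, with a log2FC of -0.29 (adjusted p = 0.187).

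The 3 chains of complement C1q, which macrophages secrete, are encoded side by side on chromosome 4 within 18675 bases. *C1qa* had 15.6 and 17.1 CPM in wild-type lungs and 13.1 and 13.9 CPM in mutant lungs (log2FC -0.27, adjusted p = 0.162), without overlap. *C1qb* (log2FC -0.08, adjusted p = 0.692) and *C1qc* (log2FC 0.02, adjusted p = 0.929) overlapped. The Fc receptors for immunoglobulin G, *Fcgr1* and *Fcgr3*, had log2FC values of -0.18 (adjusted p = 0.684) and -0.05 (adjusted p = 0.886) and overlapped, and 5.42% of the 75-base windows of *Fcgr3* also occur in *Fcgr2b*. *Aif1*, which encodes the macrophage protein IBA1, had 2.23 and 2.21 CPM against 1.83 and 2.02 CPM (log2FC -0.20, adjusted p = 0.718). The promoters of *Mpeg1* (chr19:12460520-12460769, plus strand) and *C1qc* (chr4:136892915-136893164, minus strand) are shown as those of a gene with a lower level and a gene without, marked as before.
Mpeg1: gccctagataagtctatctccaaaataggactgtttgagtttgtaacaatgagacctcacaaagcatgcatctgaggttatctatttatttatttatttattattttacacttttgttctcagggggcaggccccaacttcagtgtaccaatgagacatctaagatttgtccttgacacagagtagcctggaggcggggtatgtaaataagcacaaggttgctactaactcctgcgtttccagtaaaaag
C1qc: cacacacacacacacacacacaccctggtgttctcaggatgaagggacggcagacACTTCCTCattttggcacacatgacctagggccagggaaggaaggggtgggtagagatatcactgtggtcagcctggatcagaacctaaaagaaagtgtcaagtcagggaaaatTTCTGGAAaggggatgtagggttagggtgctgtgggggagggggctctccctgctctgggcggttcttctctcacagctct

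The *Mpeg1* promoter held none of the letters searched in these 250 bases, while that of *C1qc* held GAGGAAGT and TTNNGNAA. In the GENCODE M21 annotation *C1qc*, on the minus strand, begins at 136893065, inside its stretch.

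The mast cell gene *Cpa3*, which encodes carboxypeptidase A3, was the only gene of the 38 tested with both mutant lungs above both wild-type lungs. It had 2.31 and 2.89 CPM in wild-type lungs and 3.24 and 3.36 CPM in mutant lungs, a log2FC of 0.35 (95% interval -0.10 to 0.80, adjusted p = 0.428). *Cd3e*, a chain of the T cell receptor complex, had 1 and 0 reads in wild-type lungs and 2 and 2 in mutant lungs and stayed under the filter.

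The lungs of a genotype were not alike for these genes. mutant lung 1 was the lowest of the 4 lungs in 26 of the 38 genes (68.4%, against 30.6% of all tested genes), and wild-type lung 1 was the highest in 21 (55.3%, against 23.0%). mutant lung 2 exceeded mutant lung 1 in 13 of 15 macrophage and monocyte genes and in 14 of 17 shared genes, but in 2 of 5 granulocyte genes. As a median over the genes, the log2 deviation from the mean of the 4 lungs in the macrophage and monocyte genes was 0.10 and 0.03 in wild-type lungs and -0.13 and 0.03 in mutant lungs. In this subgroup the medians of mutant lung 2 and wild-type lung 2 were alike. In the shared genes the medians were 0.10 and 0.11 in wild-type lungs and -0.20 and -0.04 in mutant lungs. In the granulocyte genes they were 0.40 and 0.20 against -0.29 and -0.21, a gap between genotypes wider than that within either. Without mutant lung 1, the median log2FC of the macrophage and monocyte genes was 0.03, and without mutant lung 2 it was -0.20. Over the 4 ways of leaving out 1 lung, the median of the granulocyte genes stayed between -0.76 and -0.47.

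**Figure D3:**
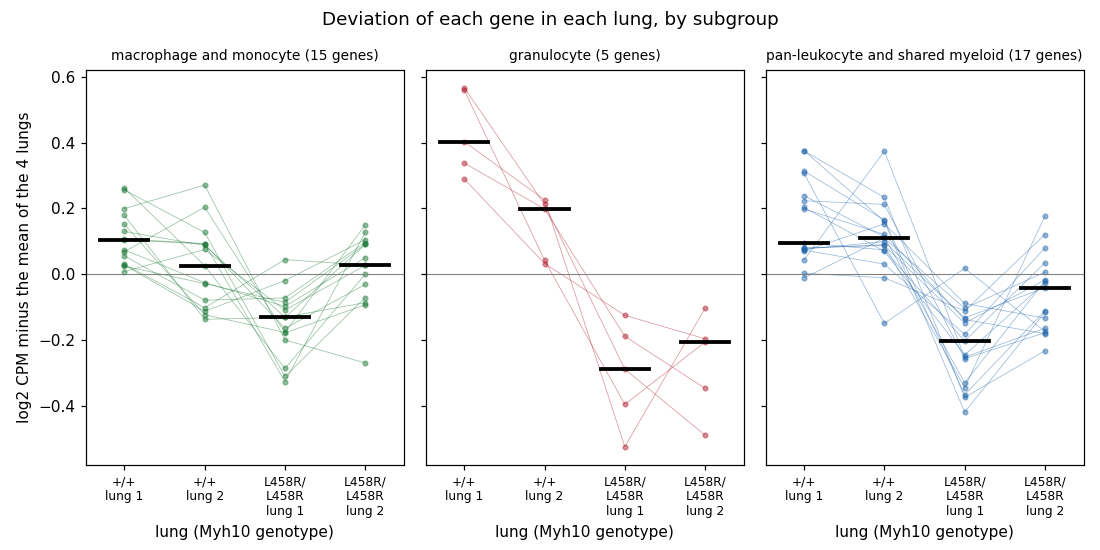
Log2 CPM of each gene in each lung minus its mean over the 4 lungs, in 3 panels for the 15 macrophage and monocyte, 5 granulocyte and 17 shared genes. Thin lines join the values of a gene, and thick bars are medians, which in the granulocyte panel lie at 0.40 and 0.20 in wild-type lungs and at -0.29 and -0.21 in mutant lungs.

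Further genes of the same lineages, listed by role with earlier results of these data known, gave a mixed account. For scale, 49.5% of all tested genes had a log2FC below 0 and 1.34% were called as lower. Of 15 tested granulocyte genes outside the 41, 10 had a log2FC below 0, and the median was -0.37. *Pglyrp1*, a peptidoglycan-binding granule protein and the list's most counted gene, had 4.85 and 6.04 CPM against 3.34 and 3.51 CPM (log2FC -0.66, adjusted p = 0.0863). *Lcn2*, which encodes lipocalin 2 of neutrophil granules and of epithelia, fell by 0.95 on the log2 scale (adjusted p = 0.0293, and 0.0916 without wild-type lung 1) and was the only one called. *Csf3r*, the receptor through which granulocytes are raised, had 2.75 and 3.20 CPM in wild-type lungs and 3.67 and 3.39 CPM in mutant lungs (adjusted p = 0.565). Of 23 tested macrophage genes outside the 41, 13 were below 0 and 10 above, with a median of -0.03, and the most counted, *Apoe*, an apolipoprotein, had a log2FC of -0.17 (adjusted p = 0.315). *Lyz2*, the gene of lysozyme in myeloid cells and in alveolar type 2 cells, had 186 and 173 CPM in wild-type lungs and 117 and 148 CPM in mutant lungs, and it fell by 0.44 on the log2 scale (adjusted p = 0.0293, and 0.177 with the DESeq2 Wald test), the only call. Among 7 class II antigen presentation genes, 6 were below 0, and *Cd74*, the invariant chain, which alveolar type 2 cells also make, fell by 0.42 on the log2 scale (adjusted p = 0.0275, up to 0.132 when leaving out wild-type lung 1 or 2 or with the DESeq2 Wald test).

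Of 13 tested ligands and counter-receptors of these cells, 2 were called, both lower (against 1.34% of all tested genes) and both also made by the epithelium. *Icam1*, the ligand of the *Itgb2* integrins, fell by 0.44 on the log2 scale (adjusted p = 0.0043), though an opposite-strand gene overlaps its last exon. *Cdh1*, a ligand of an *Itgb7* integrin, fell by 0.30 (adjusted p = 0.0178, and 0.107 without wild-type lung 1). The ligands of *Csf1r* had values on either side of 0. *Csf1* had 21.3 and 20.5 CPM in wild-type lungs and 21.6 and 22.1 CPM in mutant lungs, while *Il34* had 6.94 and 5.72 CPM against 4.60 and 4.66 CPM (log2FC -0.46, adjusted p = 0.167). *Cx3cl1*, the ligand of *Cx3cr1*, had a log2FC of -0.38 (adjusted p = 0.116), *Ccl2*, that of *Ccr2*, one of 0.19 (adjusted p = 0.761), and *Vcam1*, an endothelial and mesenchymal ligand of integrins, one of 0.04 (adjusted p = 0.718). *Madcam1*, a ligand of an *Itgb7* integrin, had 1 and 0 reads against 7 and 7 and was under the filter.

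Markers of other cells had lower values as well. Of all tested genes, 49.5% had a log2FC below 0 and 1.34% were called as lower. A lower level at an unadjusted p under 0.05 by edgeR was reached by 9.02%. Of 11 tested erythroid genes, 9 were below 0 and 2 were called, *Alas2* and *Hba-a2*, both lower, and the summed erythroid level was 4280 and 5373 CPM in wild-type lungs and 3779 and 4292 CPM in mutant lungs. Reads that *Hba-a2* shares with the near-identical *Hba-a1* were dropped in counting, so its level is uncertain. Neither erythroid call held with the DESeq2 Wald test, which called 1 other gene of the list, or without wild-type lung 2. The call of *Hba-a2* was also lost without mutant lung 1, with DESeq2 size factors, with a minimum mean of 50 counts and with robust = TRUE. Of 8 platelet genes, 7 were below 0, and 0 were called or reached an unadjusted p under 0.05 by edgeR (DESeq2 gave no adjusted p for 6 of them), and their sum was 28.7 and 29.7 CPM against 24.1 and 28.5 CPM. Of 6 epithelial markers, 5 were below 0 and *Krt8* was called, with sums of 7322 and 7145 CPM against 5213 and 6133 CPM. Most of the epithelial sum was *Sftpc*, at 5815 and 5630 CPM in wild-type lungs and 3876 and 4750 CPM in mutant lungs. In 4 of the 6 both mutant lungs lay below both wild-type lungs (against 24.3% of all tested genes). *Epcam* (log2FC -0.04) and *Nkx2-1* (log2FC 0.02) overlapped between genotypes. All 6 endothelial markers were below 0, 0 were called by edgeR or DESeq2 and 4 had an unadjusted p under 0.05, with sums of 1535 and 1486 CPM against 1420 and 1360 CPM. No tested gene of these 4 lists was at 0 in any lung. mutant lung 1 had the lowest sum of the erythroid, platelet and epithelial lists, as it had for most leukocyte genes. The most counted genes of the 4 lists, *Hbb-bs* (adult beta globin), *Itga2b* (platelet integrin), *Sftpc* (surfactant protein C) and *Cdh5* (endothelial cadherin), had log2FC values of -0.22, -0.16, -0.41 and -0.09, and none was called. The part of blood content and of epithelial expression in the leukocyte values was not tested.

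**Figure D4:**
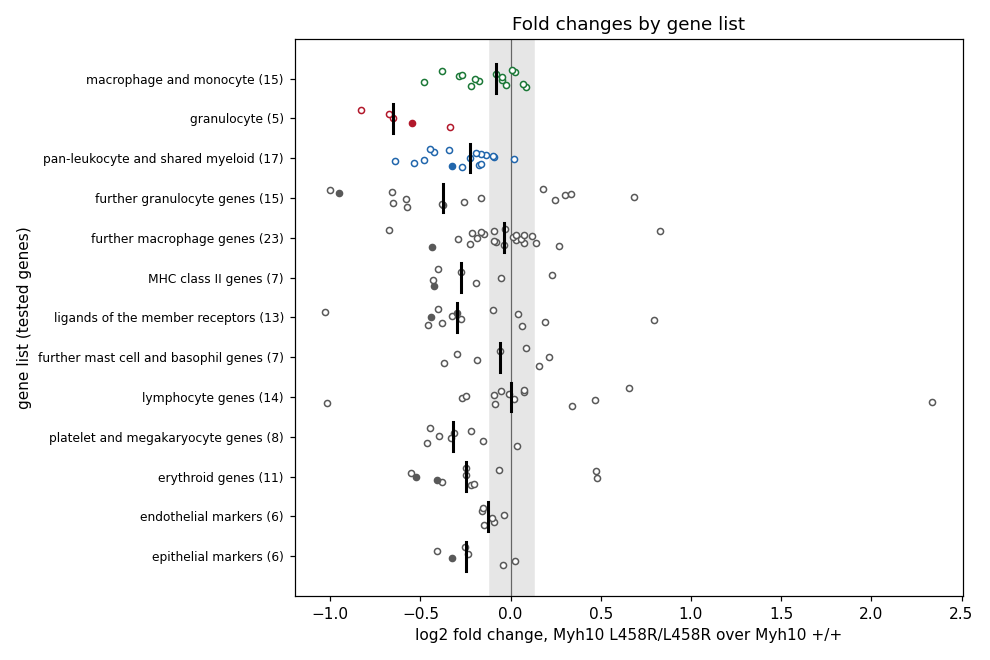
Log2 fold change (mutant over wild type) of the tested genes of each list, with the number tested in brackets. Each point is a gene, filled where it was called, black bars are medians and the grey band spans the quartiles of all tested genes. The median bars lie at -0.65 for the granulocyte genes, -0.37 for the further granulocyte genes, -0.08 and -0.03 for both macrophage lists and 0.0043 for the lymphocyte genes.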

How the data were processed

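Stranded mRNA libraries of 2 wild-type and 2 mutant E17 lungs had been sequenced single-end. The deposited table holds an unnormalised count for every Ensembl gene and lung. The authors obtained it by Reaper trimming, STAR 2.4.0a alignment (GRCm38) and exon counting in featureCounts 1.5.1. They dropped multimapping reads and those shared by more than 1 gene, and the strand setting is not given in the sources used here. Such reads are missing for genes with close copies, and genes with an opposite-strand neighbor are uncertain.

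Genotypes were taken from the sample labels. Nothing ties lungs of the same number to a litter or day, and p-values measure the spread between the lungs. edgeR 4.0.16 (TMM, glmQLFit with robust = FALSE, glmQLFTest, Benjamini-Hochberg) was fitted to all genes averaging 5 or more counts, the minimum in the study's methods, and was tested on simulated data. Intervals are 95% intervals from the standard error and the moderated degrees of freedom. CPM use TMM library sizes. Deviations use log2 CPM with a prior count of 2. Exon lengths, overlaps and shared 75-base windows came from GENCODE M21 (GRCm38), and 45143 of 45706 identifiers matched. Promoters came from RefSeq (GRCm38.p6). No list was tested as a set.

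The members, subgroups and further lists of genes were chosen with earlier results of these data known. All 41 members are named. Full values were planned for called members, those with the most reads or largest fold changes in a subgroup and those without overlap, and for further genes that were called or are ligands of member receptors. *Csf3r*, *Prtn3*, *Ctsg*, *Epcam*, *Nkx2-1* and *Hmgxb3* were named after their values or positions were seen, and *Epb42* of the erythroid list was not analysed here. Alternatives were other scalings (DESeq2 size factors, library totals), other filters, robust = TRUE, DESeq2 1.42.0, a replicate block and leaving out each lung.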

Additional observations from a re-analysis of the deposited data

How the results depend on the processing

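Both calls depended on the processing. *S100a9* was called under 10 of 12 alternatives, and not with the DESeq2 Wald test (adjusted p = 0.0566) or without wild-type lung 1 (0.152). *Laptm5* was called under 4 of 12, with adjusted p from 0.0133 to 0.194. *Mpeg1*, not called above, was called under 6 of 12, with adjusted p from 4.694e-04 to 0.288. Of the members, 1 was called lower with DESeq2 size factors, with library totals, with a minimum mean of 50 counts and with DESeq2, 10 without the filter, 4 with the replicate block and 0 to 9 when leaving out 1 lung each. It was 0 without wild-type lung 1, 1 without wild-type lung 2 or mutant lung 1, and 9 without mutant lung 2, where the lone lung is assumed to vary like the others. Of all genes, 308 were called, but 1162 without the filter, 474 with robust = TRUE and 206 to 1643 when leaving out a lung. The granulocyte median was -0.542 without the filter, with 2 more sparse genes, and -0.761 to -0.47 when leaving out a lung. The same range was -0.205 to 0.026 for the macrophage and monocyte median, -0.295 to -0.158 for all members and -0.299 to -0.199 for the shared genes. Between 26 and 35 members were then below 0, and 30 to 32 under the other alternatives. No called member changed sign. Outside the members, *Icam1* and *Krt8* were called under all 12 alternatives, *Lyz2* and *Cdh1* under 11 of 12, *Lcn2* under 10 of 11, *Alas2* under 10 of 12, *Cd74* under 9 of 12 and *Hba-a2* under 6 of 12. Other causes were not tested. DESeq2 gave an adjusted p for 23 of 38 members.

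Same-numbered lungs shared only a number. Their deviations correlated at -0.214 over 18763 genes and at -0.0187 over 18114 genes without the X and Y chromosomes. The replicate block called 710 genes and the members *Mpeg1*, *S100a9*, *Laptm5* and *Lcp1*. The crossed pairing, chosen after seeing the data, called 415 genes and 2 members.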

Other observations

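Lists of rarer leukocytes, not described above, gave no call by edgeR, and DESeq2 gave no adjusted p for 13 of the lymphocyte genes and 4 of the mast cell and basophil genes. The genes picked out here were chosen after their values were seen. Of 14 tested lymphocyte genes, 7 had a log2 fold change (log2FC) below 0 (against 49.5% of all tested genes) and 7 above, with an unadjusted p under 0.05 for 1 of each. The most counted, *Id2*, an inhibitor of helix-loop-helix factors that many lung cells make, had a log2FC of 0.07 (adjusted p = 0.571). *Il7r*, the interleukin 7 receptor of lymphoid cells, had 2 and 2 reads in wild-type lungs and 18 and 12 reads in mutant lungs (log2FC 2.34, SE 0.65, adjusted p = 0.0964, edgeR). Of 7 tested mast cell and basophil genes, 4 were below 0 (against 49.5% of all tested genes) and 3 above. Of the 4, 2 had an unadjusted p under 0.05 (9.02% of all tested genes did, at a lower level). These were *Hdc* (log2FC -0.37, adjusted p = 0.0568, edgeR) and *Gata2* (log2FC -0.30, adjusted p = 0.0683, edgeR). *Kit*, the stem cell factor receptor with the most reads, had a log2FC of -0.06 (adjusted p = 0.681). Besides *Cpa3*, the mast cell tryptase *Tpsb2* had 2.23 and 1.996 CPM in wild-type lungs and 2.08 and 2.80 CPM in mutant lungs, which overlapped. Among the ligands, *Ccl7*, another ligand of *Ccr2*, had 1.57 and 1.73 CPM in wild-type lungs and 3.24 and 2.52 CPM in mutant lungs (log2FC 0.80, adjusted p = 0.125). *Csf2*, a growth factor of alveolar macrophages, had 45 and 28 reads against 18 and 33 reads (log2FC -1.03, adjusted p = 0.133). Neither passed the threshold.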
